A study of Mus musculus with 4 samples.

Results

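Interferon-stimulated antiviral genes are the effector genes that a cell transcribes after sensing an interferon. The 47 genes described here were taken by name from a list of classical members of this response, and all 47 were present among the 53379 genes of the expression table. They were grouped by role into 9 groups: nucleic acid sensors, IFIT proteins, OAS proteins, Mx GTPases, IFITM proteins with tetherin, GBP and IRG GTPases, ISG15 with its enzymes, enzymes of nucleotide and RNA metabolism, and signalling and other genes. Expression was measured by RNA-seq in 4 libraries of mouse group 3 innate lymphoid cells (ILC3s), which are lymphocytes of the intestinal mucosa that lack rearranged antigen receptors. The comparison asks whether these genes differed when ILC3s lacked Brg1, the ATPase subunit of the SWI/SNF chromatin remodelling complex, encoded by Smarca4.

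Both cell populations came from mixed bone marrow chimeras on the C57BL/6 background. Marrow from Thy1.2 donors of the genotype Rag1-/- Smarca4 f/f and from Thy1.1Thy1.2 donors of the genotype Rag1-/- Smarca4 f/f with a Cre transgene was combined in equal cell numbers and given to Rag2-/-Il2rg-/- hosts that had received sub-lethal irradiation. Cells of the small intestinal lamina propria were sorted 6-7 weeks later as Thy1.2 high, CD45 low cells, which were Thy1.1- for the Brg1-sufficient group (n = 2 libraries) and Thy1.1+ for the Brg1-deficient group (n = 2 libraries). All donors of both groups thus carried floxed Smarca4 and lacked Rag1, and hence mature T and B cells, and the 2 groups differed in the Cre transgene and in the Thy1.1 marker together. The age of the animals, the number of chimeras behind a library and whether libraries of the same number came from the same hosts were not given in the sources used here. The p-values therefore measure the spread between these libraries, part of which may be technical.

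Values are FPKM, that is, fragments per kilobase of transcript scaled to the size of the library, so levels can be compared between genes per unit of length. Sequencing depth cannot be read from them. The sorted values of the 4 libraries were nearly the same, with 13596 of 13693 ranks (99.3%) within 1% of each other, so a general change in level between libraries would not be visible. Smarca4 itself was at 17.1 and 16.7 FPKM in Brg1-sufficient cells against 9.98 and 9.03 FPKM in Brg1-deficient cells, 56.2% of the sufficient mean (adjusted p = 0.153, limma). In ILC3s of Rag1-/- mice with the same deletion, outside chimeras, the study reported efficient loss of Brg1 by flow cytometry and by real-time RT-PCR. FPKM of Smarca4 do not measure the Brg1 protein. Summed FPKM of 9 ILC3 markers was 2877 and 3441 in the sufficient libraries against 3823 and 3732 in the deficient ones. A further ILC3 marker, Il22, was at 8328 and 10408 FPKM against 21159 and 10408 FPKM. The highest value of every library was 21159 FPKM, so these values of Il22 may reflect its rank rather than a measured difference in level. Marker genes listed for other cells also differed between the groups, though some of them are expressed by ILC3s too. Ncr1, which encodes NKp46, and Tbx21, which encodes T-bet, are expressed by the NKp46+ subset of ILC3s. The study found a lower share of this subset among Brg1-deficient ILC3s of the small intestine in such chimeras. Its part in the values below was not tested. Summed FPKM of 10 ILC2 markers was 580 and 245 in the sufficient libraries against 103 and 129 in the deficient ones, and all 10 were lower in both deficient libraries. The sum of 10 ILC1 and NK cell markers was 243 and 341 against 256 and 246, but 6 of the 9 tested were lower and 1 (Klrk1) higher at an unadjusted p under 0.05, with Ncr1 at 31.3 and 35.5 FPKM against 5.37 and 6.02 FPKM. The corresponding sums were 147 and 310 against 133 and 303 for 10 myeloid markers, and 132 and 136 against 64.1 and 49.95 for 9 dendritic cell markers. Lyz2 was the largest part of the myeloid sum in each library (84.1 and 203 against 64.4 and 192 FPKM). Tcf4, Irf8 and Zbtb46 made up most of the dendritic cell sum. For 6 T cell markers the sums were 125 and 56.0 against 33.2 and 41.4, of which Cd4 made up 43.6 and 32.8 against 25.2 and 19.8 FPKM. Of 5 B cell markers 4 were below 1 FPKM in each library, and the sum was 9.90 and 10.7 against 2.54 and 1.69, of which Cd79b made up 8.68 and 10.02 against 1.03 and 0.99 FPKM. Of 10 epithelial markers 7 were below 1 FPKM in each library. Krt8 and Krt18 carried the higher deficient sum (5.98 and 7.57 against 21.0 and 17.9), while Epcam was at 1.5 and 1.79 FPKM against 0.68 and 0.54 FPKM. Siglech, a defining marker of plasmacytoid dendritic cells, was at 0.38 FPKM or below in each library. In bulk RNA, fewer cells of a type and less RNA per cell cannot be told apart. Mature T and B cells are outside this, since the donors lacked them and the study describes the hosts as deficient in adaptive immune cells. The T and B cell marker values are therefore not read as amounts of such cells.

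Type I and type III interferons signal through receptors that activate STAT2, which acts with IRF9 in a complex that binds the interferon-stimulated response element (ISRE). Interferon gamma, the type II interferon, acts through another element, the gamma-activated site (GAS). Antiviral genes act at successive steps of infection, from entry and sensing of foreign nucleic acid to replication and release of particles, and several of them restrain the response itself. Interferon gamma is also a product of innate lymphoid cells, so in the intestine they both make and receive such signals.

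Promoter windows from RefSeq (build GRCm38.p6, 250 bases before to 50 after the start of each gene) were at hand for 35 of the 47 genes. An ISRE was searched on both strands as GAAA, 2 bases of any kind and GAAA again, which reads as TTTC, 2 bases and TTTC on the other strand, and a GAS as TTCNNNGAA, which reads the same on both strands. Windows of 22 of the 35 antiviral genes (62.9%) held an ISRE match, against 1079 of 27025 genes with a window (3.99%). A GAS match stood in 11 of 35 (31.4%), against 9.55% of all genes with a window. The windows below are printed in the direction of transcription with ISRE matches in capitals. Bst2, Ifitm2 and Ifitm3 are shown because they were lower in Brg1-deficient ILC3s, and Isg15 and Gbp2 because they hold the same motif while their levels overlapped between the groups. They lie at chr8:71537423-71537722 (Bst2, minus strand), chr7:140955912-140956211 (Ifitm2, minus strand), chr7:141010695-141010994 (Ifitm3, minus strand), chr4:156200769-156201068 (Isg15, minus strand) and chr3:142620413-142620712 (Gbp2, plus strand).
Bst2: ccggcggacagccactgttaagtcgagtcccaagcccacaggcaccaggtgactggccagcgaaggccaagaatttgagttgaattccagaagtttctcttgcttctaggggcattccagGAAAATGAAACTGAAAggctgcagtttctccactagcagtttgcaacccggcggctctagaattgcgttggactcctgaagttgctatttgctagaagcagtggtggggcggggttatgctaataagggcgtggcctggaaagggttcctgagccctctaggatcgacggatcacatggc
Ifitm2: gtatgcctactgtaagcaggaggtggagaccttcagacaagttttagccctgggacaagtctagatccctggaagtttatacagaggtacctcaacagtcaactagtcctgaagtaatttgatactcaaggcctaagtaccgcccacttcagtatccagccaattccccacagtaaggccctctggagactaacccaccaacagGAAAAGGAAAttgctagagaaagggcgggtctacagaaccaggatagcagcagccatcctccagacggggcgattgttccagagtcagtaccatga
Ifitm3: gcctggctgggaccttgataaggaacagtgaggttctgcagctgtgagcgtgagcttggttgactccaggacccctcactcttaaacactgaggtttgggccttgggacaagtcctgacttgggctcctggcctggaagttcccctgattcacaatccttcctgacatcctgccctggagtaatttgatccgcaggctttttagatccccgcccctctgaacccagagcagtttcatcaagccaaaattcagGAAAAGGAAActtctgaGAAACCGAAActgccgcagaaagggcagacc
Isg15: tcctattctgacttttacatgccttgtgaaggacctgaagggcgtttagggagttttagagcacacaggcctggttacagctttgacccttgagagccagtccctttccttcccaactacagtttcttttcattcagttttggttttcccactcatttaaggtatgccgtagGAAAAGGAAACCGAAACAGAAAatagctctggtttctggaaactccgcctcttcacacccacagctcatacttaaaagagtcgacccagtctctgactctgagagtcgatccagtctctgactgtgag
Gbp2: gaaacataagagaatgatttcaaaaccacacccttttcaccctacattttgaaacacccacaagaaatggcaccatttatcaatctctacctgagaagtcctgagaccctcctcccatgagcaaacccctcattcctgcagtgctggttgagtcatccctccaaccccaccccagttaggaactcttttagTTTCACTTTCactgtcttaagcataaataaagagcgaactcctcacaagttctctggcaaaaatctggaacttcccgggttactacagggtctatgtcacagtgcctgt
Relative to the start of the gene, the first bases of the matches were at -130 and -124 in Bst2, -46 in Ifitm2, 2 and 19 in Ifitm3, -78, -72 and -66 in Isg15, and -59 in Gbp2. Matches at successive positions in Bst2 and Isg15 overlap, which makes 1 longer run of GAAA repeats in each. The motifs can also overlap one another, and GAS matches starting at -136 in Bst2 and at 13 in Ifitm3 share bases with an ISRE match.

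The antiviral genes were transcribed at widely different levels in these cells. Averaged over the 4 libraries, Bst2 (187 FPKM) and Ifi27 (102 FPKM) stood above 100 FPKM, 23 genes were between 10 and 100 FPKM, 16 between 1 and 10 FPKM, and 6 at or below 1 FPKM. By this mean over both groups, the next in order were Samhd1 (87.9 FPKM), Gbp4 (59.2 FPKM), Igtp (47.6 FPKM), Gbp7 (45.0 FPKM), Ifi35 (35.1 FPKM) and Gbp2 (34.8 FPKM). Single libraries of each of these genes overlapped those of its neighbours from Ifi27 through Gbp7, and those of Ifi35 overlapped those of Gbp2. The order of these neighbours is thus not settled by the data, except that Samhd1 was above Gbp4 within each library. In Brg1-sufficient cells the mean of Gbp4 (42.3 FPKM) was below those of Ifitm2 (48.4 FPKM), Igtp (46.1 FPKM) and Gbp7 (44.5 FPKM). The genes at the low end included Mx1, Oas2, Ifit2 and Ifit3b, which belong to the families that an acute type I response raises most in many cells.

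**Figure D1:**
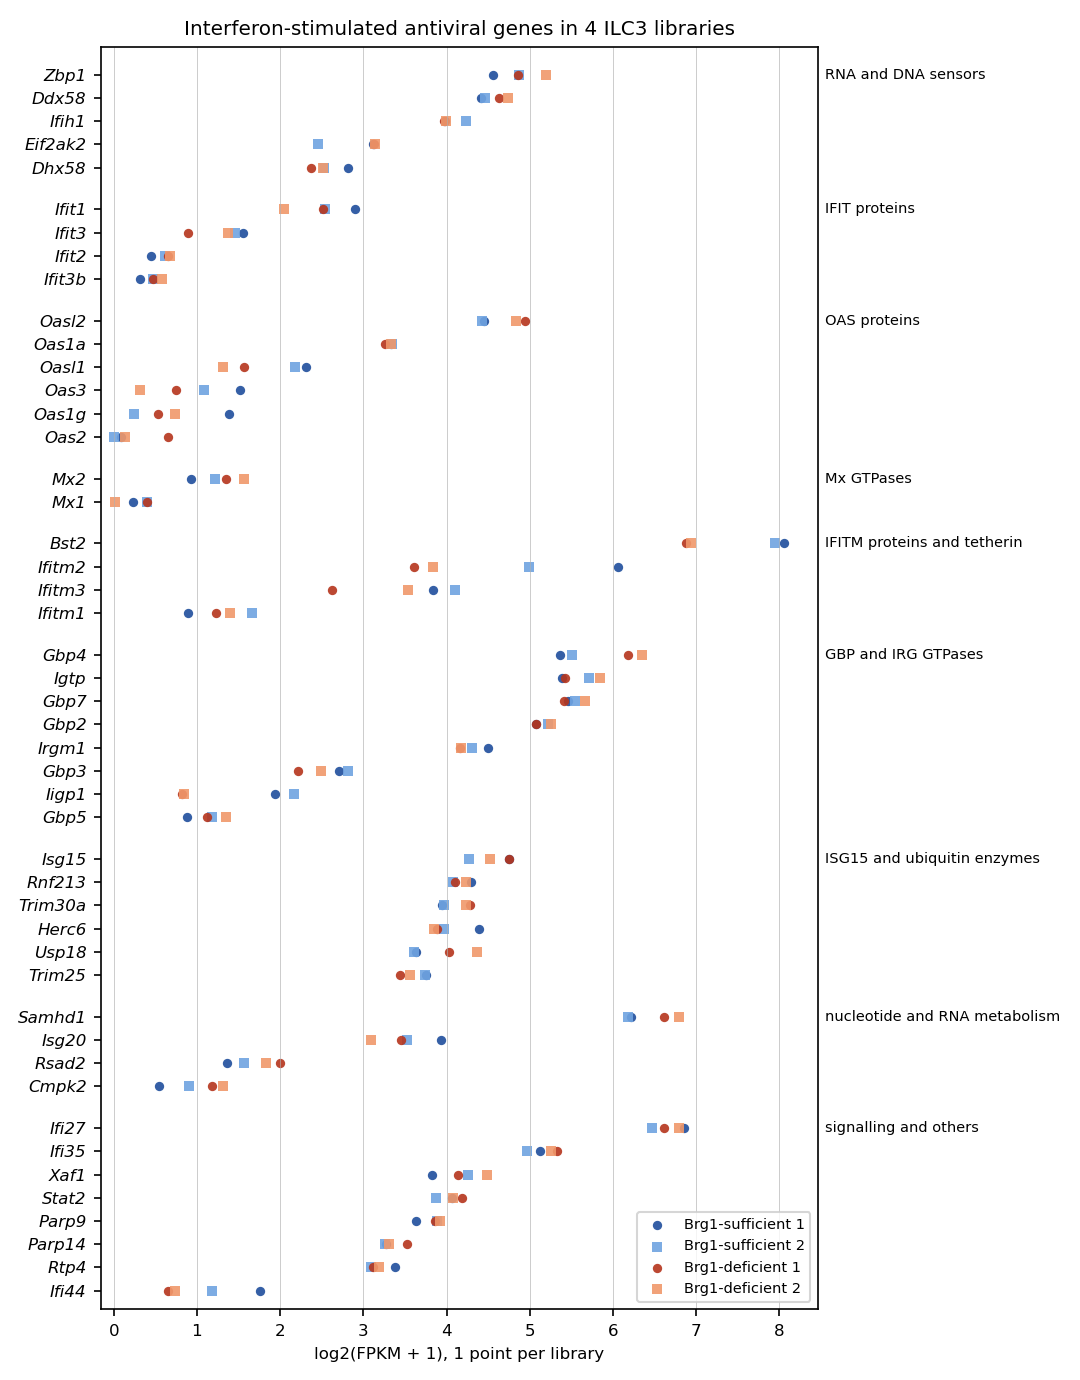
Level of each antiviral gene, as log2(FPKM + 1) on the horizontal axis, with genes in rows by role group (1 point per library; blue, Brg1-sufficient; red and orange, Brg1-deficient). Bst2 has the highest points, and its Brg1-deficient points (117 and 122 FPKM) lie to the left of the sufficient ones (266 and 245 FPKM), whereas the points of Ifi27, Gbp7 and Gbp2 interleave.

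Of the 47 genes, 42 passed the filter of a group mean over 1 FPKM and were tested with the 14739 genes that passed. The other 5, Ifit2, Ifit3b, Oas1g, Oas2 and Mx1, reached at most 1.62 FPKM in any library and were not tested. With genotype as the only term of the model, no antiviral gene passed an adjusted p of 0.05 by limma's moderated test in either direction. Of all genes tested, 0.224% did so as lower and 0.0814% as higher in Brg1-deficient cells. Fits with other settings, among them a block on the library number, are given in the closing section. At an unadjusted p under 0.05, 5 of the 42 were lower (11.9%, against 6.47% of all genes tested) and 4 were higher (9.52%, against 6.12%). These counts rest on single libraries, being 2 and 3 without Brg1-deficient library 1, 3 and 1 without Brg1-deficient library 2, and 7 and 2 without Brg1-sufficient library 2. Under the criteria by which the study made its gene lists (p under 0.05 with an adjusted p under 0.4, a group mean over 5 FPKM and a log2 ratio beyond 0.5), 3 were lower and 3 higher, against 4.37% and 3.85% of all genes tested. Without either Brg1-deficient library, 1 was lower and 0 were higher by these criteria. The study applied list criteria to its own count test and found response to virus among the categories overrepresented in its higher genes. Which genes carried that category was not examined here. With 2 libraries against 2, an exact permutation test of a single gene cannot go below p = 0.33.

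The differences lay on both sides of 0. The median log2 fold change (Brg1-deficient minus Brg1-sufficient, on log2(FPKM + 1)) was 0.03 over the 42 genes and 0.03 over all genes tested, with 19 of the 42 below 0 and 23 above. In 29 of the 42 (69.0%) the libraries of the groups did not overlap, 16 with lower and 13 with higher deficient values, where 44.6% of all genes tested did not overlap (20.2% lower and 24.4% higher). The log2 fold change was within 0.25 of 0 for 18 of the 42 and beyond 0.5 in size for 11, of which 7 were lower and 4 higher. The 95% confidence interval of the fold change stayed within 2-fold in both directions for 25 of the 42, so larger changes were compatible with the data for the remainder.

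**Figure D2:**
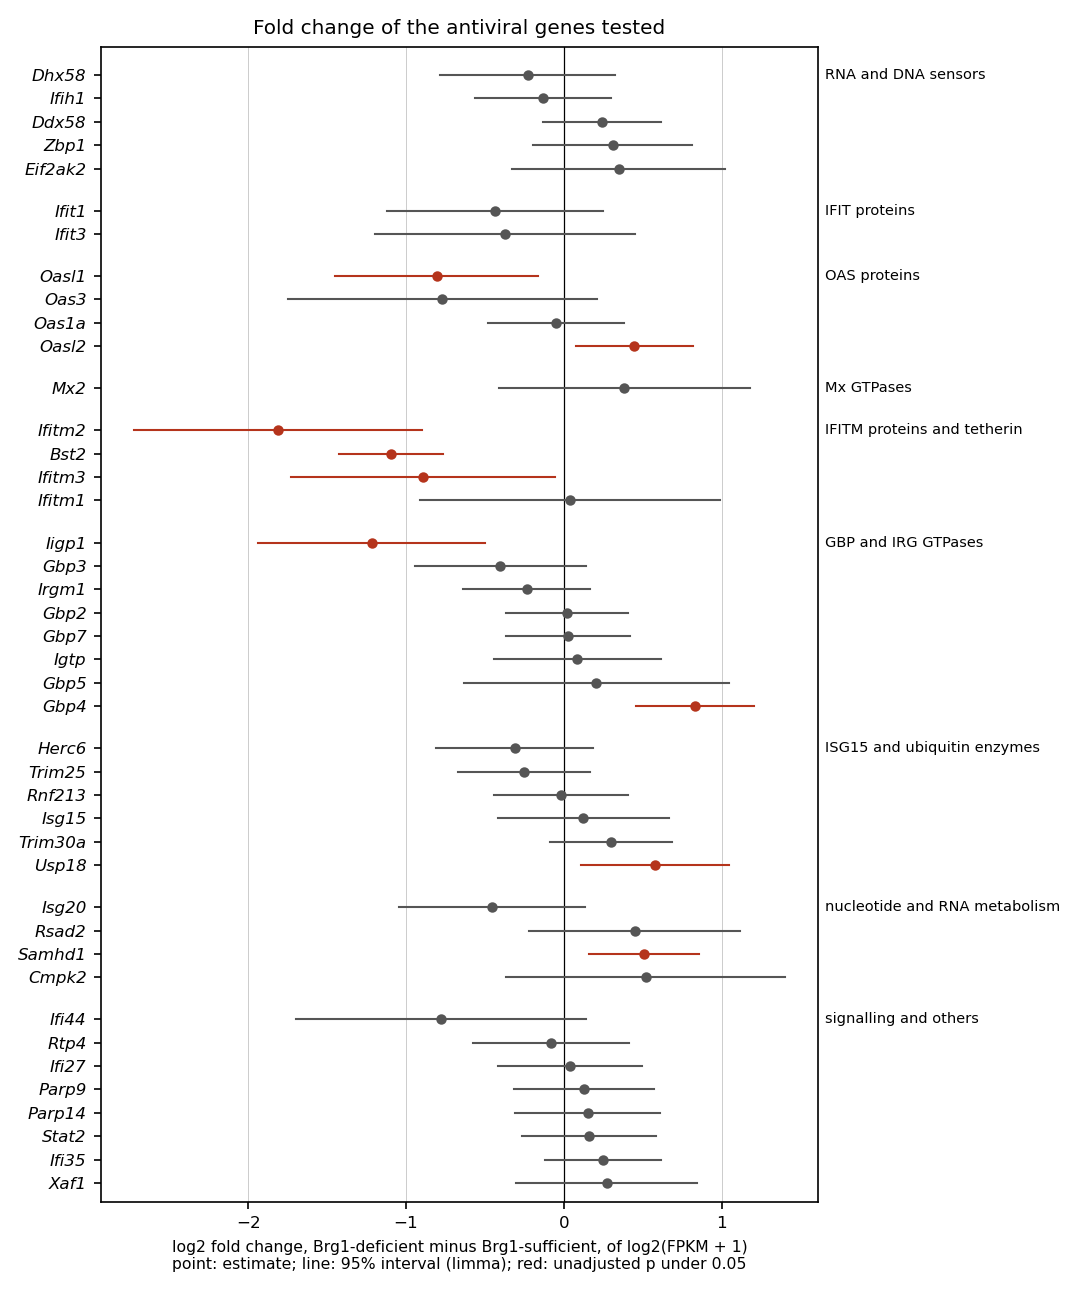
Log2 fold change of each antiviral gene tested (points, Brg1-deficient minus Brg1-sufficient on log2(FPKM + 1)) with its 95% confidence interval from limma (lines; red, unadjusted p under 0.05). Bst2, Ifitm2, Iigp1, Oasl1 and Ifitm3 have intervals wholly below 0, Gbp4, Samhd1, Usp18 and Oasl2 wholly above 0, and the intervals of the other genes cross it.

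The role group with the most genes at an unadjusted p under 0.05 was that of the IFITM proteins and tetherin, which act at the cell surface and in endosomes. Here 3 of 4 had lower levels in Brg1-deficient ILC3s at that threshold, where 6.47% of all genes tested did. The count was 1 without Brg1-deficient library 1, and 2 without any one of the other 3 libraries. Bst2 (chr8:71534255-71537456, GRCm38) encodes tetherin, which holds budding enveloped virions at the plasma membrane. Brg1-sufficient cells held 266 and 245 FPKM of it, and Brg1-deficient cells 117 and 122 FPKM. Both deficient libraries were below both sufficient ones by far more than the spread within a group, and the means were 255 ± 14.6 and 119 ± 3.70 FPKM (SD, n = 2 each). The log2 fold change was -1.09 (SE 0.131, 95% confidence interval -1.42 to -0.76, limma adjusted p = 0.0612), the smallest adjusted p among the 42 genes.

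Ifitm2 (chr7:140954837-140955987) and Ifitm3 (chr7:141009586-141010770) encode membrane proteins that block the fusion of viruses with endosomal membranes. Ifitm2 was at 65.9 and 30.9 FPKM against 11.2 and 13.3 FPKM. The groups did not overlap, but the sufficient libraries differed from each other by more than the deficient ones did. Its log2 fold change was -1.81 (SE 0.363, 95% confidence interval -2.72 to -0.90, limma adjusted p = 0.141), and it ranged from -2.35 to -1.27 as single libraries were left out. Ifitm3 was at 13.4 and 16.2 FPKM against 5.17 and 10.6 FPKM. All 4 values kept the groups apart, with the second deficient library nearer to the sufficient ones, and the log2 fold change was -0.89 (SE 0.332, limma adjusted p = 0.368), with -0.43 without the first Brg1-deficient library. Ifitm1, which lies between them in the same 55.9 kb stretch of chromosome 7 and whose product acts mainly at the plasma membrane, was at 0.86 and 2.16 FPKM against 1.35 and 1.64 FPKM. These values overlapped, with a log2 fold change of 0.04 (95% confidence interval -0.91 to 0.99).

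Several other measures moved with these 3 genes. The ILC2 marker sum given above followed the order of Ifitm2 among the sufficient libraries, both being higher in the first, whereas Ifitm3 was higher in the second. All 10 ILC2 markers were lower in the deficient group. The myeloid marker sum was higher in the second library of each group, as Ifitm3 was, but it overlapped between the groups. Single myeloid markers went both ways. Adgre1 (5.76 and 6 against 2.09 and 3.67 FPKM) and Itgam (1.52 and 1.23 against 0.39 and 0.38 FPKM) were lower in both deficient libraries. Fcgr3 (15.2 and 24.8 against 40.7 and 44.5 FPKM) was higher in both, and the remaining myeloid markers overlapped. The dendritic cell marker sum, most of which was Tcf4, Irf8 and Zbtb46, was lower in the deficient libraries, as Bst2 was. Ccr9 and Xcr1 were also lower in both deficient libraries. Siglech was near 0 in each library, Flt3 and Cd209a were below 1 FPKM in each, and Itgax did not pass the filter. The part of these cells in the Bst2, Ifitm2 and Ifitm3 results was not tested. Reads may also be split: 48.5% of the 50-base words of Ifitm2 transcripts stand in transcripts of other genes as well (36.1% in the overlapping gene Gm45717, which was at 0.46 FPKM or below in each library), against 10.02% for Ifitm3 and 0 for Bst2.

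Guanylate-binding proteins and immunity-related GTPases attack the vacuoles of intracellular microbes and are classical targets of interferon gamma. All 8 were tested, and 1 had an unadjusted p under 0.05 in each direction. Gbp4 (chr5:105115767-105139586) was at 40.1 and 44.5 FPKM with Brg1 against 71.7 and 80.5 FPKM without it. The deficient libraries were both higher, with a log2 fold change of 0.83 (SE 0.148, limma adjusted p = 0.111). Iigp1, an IRG protein that disrupts parasite vacuoles, went the other way at a low level. It was at 2.82 and 3.48 FPKM against 0.76 and 0.80 FPKM, without overlap, and its log2 fold change was -1.22 (SE 0.286, limma adjusted p = 0.184). The abundant Igtp was at 40.9 and 51.3 FPKM against 41.9 and 56.6 FPKM. Its libraries overlapped, and the interval of the log2 fold change ran from -0.44 to 0.61. Gbp7 and Gbp2 also overlapped, with log2 fold changes of 0.03 and 0.02 whose sign turned as single libraries were left out (-0.10 to 0.15 and -0.071 to 0.11). Irgm1, a regulator of the IRG family, was at 21.6 and 18.8 FPKM against 16.9 and 17 FPKM (log2 fold change -0.24, limma adjusted p = 0.608).

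The guanylate-binding proteins of the mouse are encoded in 2 clusters, and their genes of known symbol were set side by side after their values had been seen. The chromosome 3 cluster (chr3:142493978-142638008) holds 5 such genes, Gbp5, Gbp7, Gbp3, Gbp2b and Gbp2, of which 4 are among the 47. Gbp2b is not, and was at 1.97 and 2.68 FPKM against 1.94 and 4.42 FPKM. The log2 fold changes of the 5 ran from -0.40 to 0.27, with a median of 0.03. The chromosome 5 cluster (chr5:105014150-105346472) holds 6, of which Gbp4 is among the 47. In it 5 were tested, all 5 had both deficient libraries above both sufficient ones (24.4% of all genes tested did so), and the log2 fold changes ran from 0.25 to 0.88 with a median of 0.67. Gbp9 was at 17.7 and 13.0 FPKM against 31.3 and 26.2 FPKM, and Gbp8 at 28.0 and 31.9 FPKM against 39.9 and 44.3 FPKM. Gbp8, Gbp9 and Gbp4 overlap in the annotation, so reads may be split among them and the 3 are not independent measurements. The difference between the clusters was not tested.

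**Figure D3:**
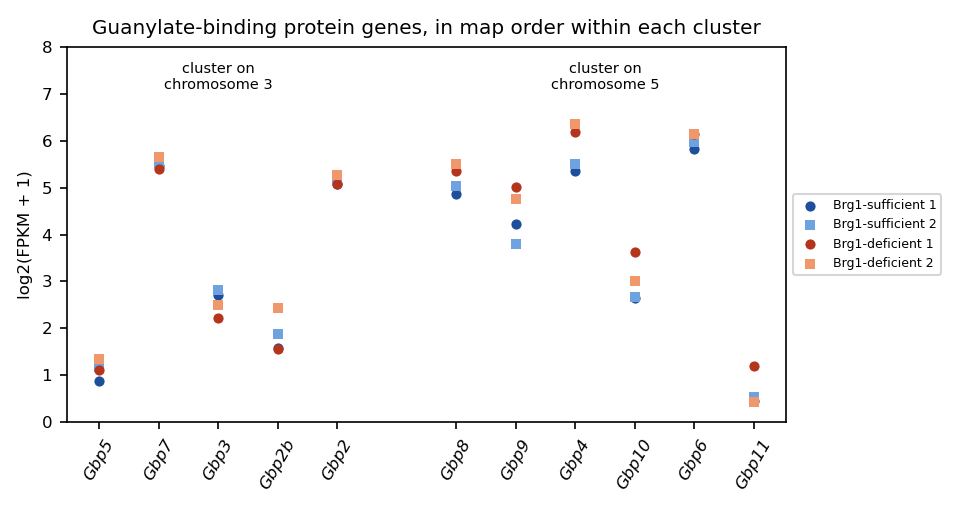
Level of the guanylate-binding protein genes, as log2(FPKM + 1) on the vertical axis, in map order within the chromosome 3 and chromosome 5 clusters (1 point per library; blue, Brg1-sufficient; red and orange, Brg1-deficient). The Brg1-deficient points lie above both sufficient ones in the 5 genes tested on chromosome 5 and in none of the 5 on chromosome 3.

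OAS proteins sense double-stranded RNA and make oligoadenylates that activate RNase L, while the OAS-like proteins have regulatory roles. Of the 4 tested, 1 was lower and 1 higher at an unadjusted p under 0.05, and these are neighbours on chromosome 5. Oasl1 (chr5:114923240-114937915), known to restrain the translation of Irf7, was at 3.96 and 3.52 FPKM against 1.95 and 1.49 FPKM. The deficient libraries were both lower, with a log2 fold change of -0.80 (SE 0.255, limma adjusted p = 0.302). Oasl2 (chr5:114896936-114912234) was at 20.9 and 20.5 FPKM against 29.6 and 27.5 FPKM. Here the deficient libraries were both higher, with a log2 fold change of 0.45 (SE 0.147, limma adjusted p = 0.322). The windows of both genes held no ISRE match of the letters searched.

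Of the synthetases themselves, Oas1a was at 9.06 and 9.2 FPKM against 8.56 and 9.04 FPKM, a log2 fold change of -0.05 with an interval of -0.48 to 0.38. Oas3 was lower without passing the unadjusted threshold, at 1.86 and 1.12 FPKM against 0.68 and 0.24 FPKM (log2 fold change -0.77, limma adjusted p = 0.499). Oas1g reached 1.62 FPKM in 1 library and Oas2 was listed at 0 in the second Brg1-sufficient library. Oas1a and Oas1g share much of their sequence, 57.6% of the 50-base words of Oas1a, so their separate levels are uncertain.

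ISG15 is a ubiquitin-like protein that is joined to newly made proteins, and its enzymes are themselves interferon-stimulated. Isg15 was at 25.8 and 18.3 FPKM against 25.9 and 21.9 FPKM, so the groups overlapped (log2 fold change 0.12, 95% confidence interval -0.42 to 0.67). Usp18 (chr6:121245906-121270917), which removes ISG15 and also limits signalling from the type I receptor, was at 11.4 and 11.2 FPKM against 15.3 and 19.7 FPKM. Both deficient libraries were above both sufficient ones, with a log2 fold change of 0.58 (SE 0.187, limma adjusted p = 0.309). Herc6, the main ISG15 ligase of the mouse, was at 19.9 and 14.7 FPKM against 13.8 and 13.4 FPKM (log2 fold change -0.31, limma adjusted p = 0.593). Rnf213, a large ubiquitin ligase, was at 18.6 and 15.95 FPKM against 16.2 and 17.8 FPKM, with overlapping groups. Trim25, a ligase that acts on RIG-I, and Trim30a had log2 fold changes of -0.25 and 0.30, neither with an unadjusted p under 0.05.

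Among enzymes that act on nucleotides or RNA, Samhd1 (chr2:157097533-157135265) was the most abundant. It hydrolyses deoxynucleotides and so starves reverse transcription. Brg1-sufficient cells held 73.2 and 71.5 FPKM of it, and Brg1-deficient cells 97.3 and 110 FPKM. The 2 groups lay further apart than their libraries, at a log2 fold change of 0.51 (SE 0.138, 95% confidence interval 0.16 to 0.86, limma adjusted p = 0.236). Isg20, an RNA exonuclease, was at 14.3 and 10.5 FPKM against 9.99 and 7.5 FPKM (log2 fold change -0.45, limma adjusted p = 0.508). Rsad2, which encodes viperin, and Cmpk2, which supplies its nucleotide substrate, lie side by side on chromosome 12. Cmpk2 was at 0.46 and 0.88 FPKM against 1.27 and 1.48 FPKM (log2 fold change 0.52, limma adjusted p = 0.606), and Rsad2 at 1.58 and 1.95 FPKM against 2.98 and 2.56 FPKM (log2 fold change 0.45, limma adjusted p = 0.560).

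The sensors of foreign nucleic acid gave no gene with an unadjusted p under 0.05 among 5 tested. Ddx58, which encodes the RNA sensor RIG-I, was at 20.4 and 21.1 FPKM against 23.7 and 25.6 FPKM, without overlap and with a log2 fold change of 0.24 (95% confidence interval -0.13 to 0.62). Zbp1, a sensor of Z-form nucleic acids, was at 22.5 and 28.4 FPKM against 27.9 and 35.6 FPKM, with overlapping groups (0.31, 95% confidence interval -0.19 to 0.81). The log2 fold changes of Ifih1 (MDA5), Dhx58 (LGP2) and Eif2ak2 (PKR) were -0.13, -0.23 and 0.35.

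IFIT proteins bind viral RNA with foreign 5′ ends, and Mx GTPases trap viral nucleocapsids. Ifit1 was at 6.49 and 4.79 FPKM against 4.74 and 3.13 FPKM, and Ifit3 at 1.94 and 1.74 FPKM against 0.85 and 1.60 FPKM. Both were lower in each deficient library, by margins that did not pass (log2 fold changes -0.44 and -0.37, limma adjusted p = 0.583 and 0.674). Ifit2 and Ifit3b stayed at or below 0.60 FPKM, and Ifit3 shares 51.2% of its 50-base words with Ifit3b. Mx2 was at 0.90 and 1.33 FPKM against 1.54 and 1.97 FPKM (log2 fold change 0.38, limma adjusted p = 0.649), and Mx1 was at 0.32 FPKM or below in each library.

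Signalling and other genes gave no unadjusted p under 0.05 in 8 tested. Ifi27, among the most abundant antiviral genes, was at 115 and 87.8 FPKM against 96.9 and 110 FPKM, with overlapping groups and a log2 fold change of 0.04 (95% confidence interval -0.41 to 0.49). Ifi35 was at 33.8 and 30.4 FPKM against 39.1 and 37.3 FPKM (log2 fold change 0.25, limma adjusted p = 0.560). Ifi44 was at 2.39 and 1.26 FPKM against 0.57 and 0.66 FPKM (log2 fold change -0.78, limma adjusted p = 0.471). Stat2, which carries the type I signal to the ISRE, had a log2 fold change of 0.16 (95% confidence interval -0.26 to 0.59). Parp9 and Parp14, ADP-ribosyltransferase family members, had log2 fold changes of 0.13 and 0.15, and Xaf1 and Rtp4 had 0.27 and -0.08.

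**Figure D4:**
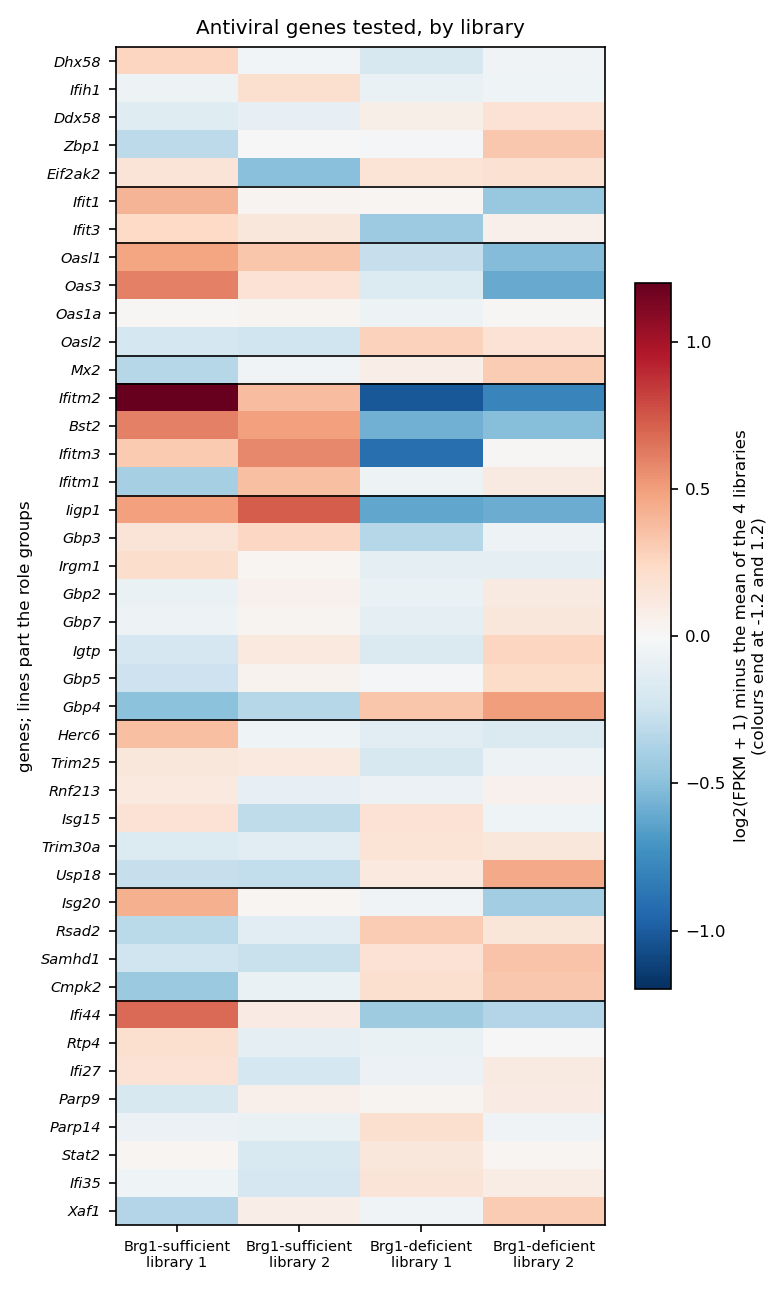
Each antiviral gene tested (rows, by role group) in each library (columns), as log2(FPKM + 1) minus the mean of the gene over the 4 libraries (red, above the mean; blue, below). Bst2, Ifitm2 and Iigp1 are red in both Brg1-sufficient and blue in both Brg1-deficient libraries, and Gbp4 and Samhd1 show the opposite pattern.

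Libraries of the same genotype also differed in these genes. The median absolute log2 difference over the 42 genes was 0.241 between the sufficient libraries and 0.166 between the deficient ones, against 0.271 to 0.353 for the 4 pairs that cross genotypes. Over all genes tested these were 0.297, 0.198 and 0.261 to 0.350. The second deficient library was higher than the first in 30 of the 42 genes, whereas the second sufficient library was higher than the first in 19 of 42. The mean log2 level of the 42 genes was 3.69 and 3.64 in the sufficient libraries and 3.53 and 3.61 in the deficient ones.

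Among the genes with an unadjusted p under 0.05, an ISRE match stood in 3 of the 4 lower genes with a window (Bst2, Ifitm2 and Ifitm3, whose windows are printed above) and in neither of the 2 higher genes with one (Samhd1 and Oasl2). It also stood in 17 of the 26 tested genes with a window and no such p (65.4%), Isg15 and Gbp2 among them. Gbp4, Usp18 and Iigp1 had no window at hand. These counts are too small for a comparison and are given as a description.

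The genes that carry interferon signals to these effectors were counted from a list of 44 ligands, receptors, kinases, transcription factors, adaptors and inhibitors, of which 32 were tested. Here 4 were lower (12.5%, against 6.47% of all genes tested) and 2 higher (6.25%, against 6.12%) at an unadjusted p under 0.05, 1 of them lower at an adjusted p under 0.05, and the median log2 fold change was -0.07. The gene past the adjusted threshold was Ifng, which encodes interferon gamma. It was at 22.8 and 37.3 FPKM with Brg1 against 3.42 and 3.22 FPKM without it, and fell by 2.80 on the log2 scale (SE 0.267, limma adjusted p = 0.0386). Its limma adjusted p was 0.0912 without the filter, 0.124 without the trend and 0.0982 to 0.432 as single libraries were left out, so the call ended in 6 of 10 alternatives. Of the 9 ILC1 and NK cell markers tested, 6 were lower and 1 higher in Brg1-deficient cells at an unadjusted p under 0.05 (limma). Ncr1 had a log2 difference of -2.36, Xcl1 of -1.92, Prf1 of -1.75, Tbx21 of -1.54, Itga1 of -1.44 and Klre1 of -1.12. Klrk1 was higher, with a log2 difference of 0.70, while Klrb1c and Gzmb overlapped between the groups. Of these, Ncr1 and Tbx21 are also expressed by NKp46+ ILC3s. The part of these markers in the Ifng result was not tested. Type I and type III interferon genes were low, with Ifnb1 between 0.33 and 0.76 FPKM and Ifnk listed at 0 in each library, and 9 of the 11 ligand genes did not pass the filter.

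Of the 4 main receptor chains, 1 had an unadjusted p under 0.05. This was Ifngr1, the ligand-binding chain for interferon gamma, at 356 and 276 FPKM against 177 and 130 FPKM (log2 fold change -1.04, limma adjusted p = 0.148). The signalling chain Ifngr2 was at 36.4 and 25.4 FPKM against 35.5 and 32.4 FPKM, with overlapping groups. Ifnar1 was at 35.2 and 23.3 FPKM against 23.8 and 19.1 FPKM, and Ifnar2 at 21.8 and 24.7 FPKM against 18.04 and 18.5 FPKM. The log2 fold changes of these type I receptor chains were -0.41 and -0.33, with limma adjusted p = 0.566 and 0.479.

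Among the transcription factors, Irf9 and Irf7 overlapped between the groups. Irf9 was at 16.7 and 19.2 FPKM against 14.6 and 20.1 FPKM, and Irf7 at 21.3 and 17.7 FPKM against 19.7 and 14.6 FPKM. Irf5 and Irf8, further factors of the family, did not overlap. Irf5 was at 28.5 and 28.4 FPKM against 12.4 and 11.3 FPKM (log2 fold change -1.199, limma adjusted p = 0.0677), and Irf8, which is also a dendritic cell marker, at 35.1 and 58.8 FPKM against 19.2 and 15.1 FPKM (-1.36, limma adjusted p = 0.147). The phosphatases Ptpn2 and Ptpn6, which restrain cytokine receptor signalling, were higher. Ptpn2 was at 69.2 and 58.5 FPKM against 96.7 and 80.2 FPKM (0.46, limma adjusted p = 0.362), and Ptpn6 at 54.0 and 79.8 FPKM against 99.9 and 106 FPKM (0.64, limma adjusted p = 0.326).

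**Figure D5:**
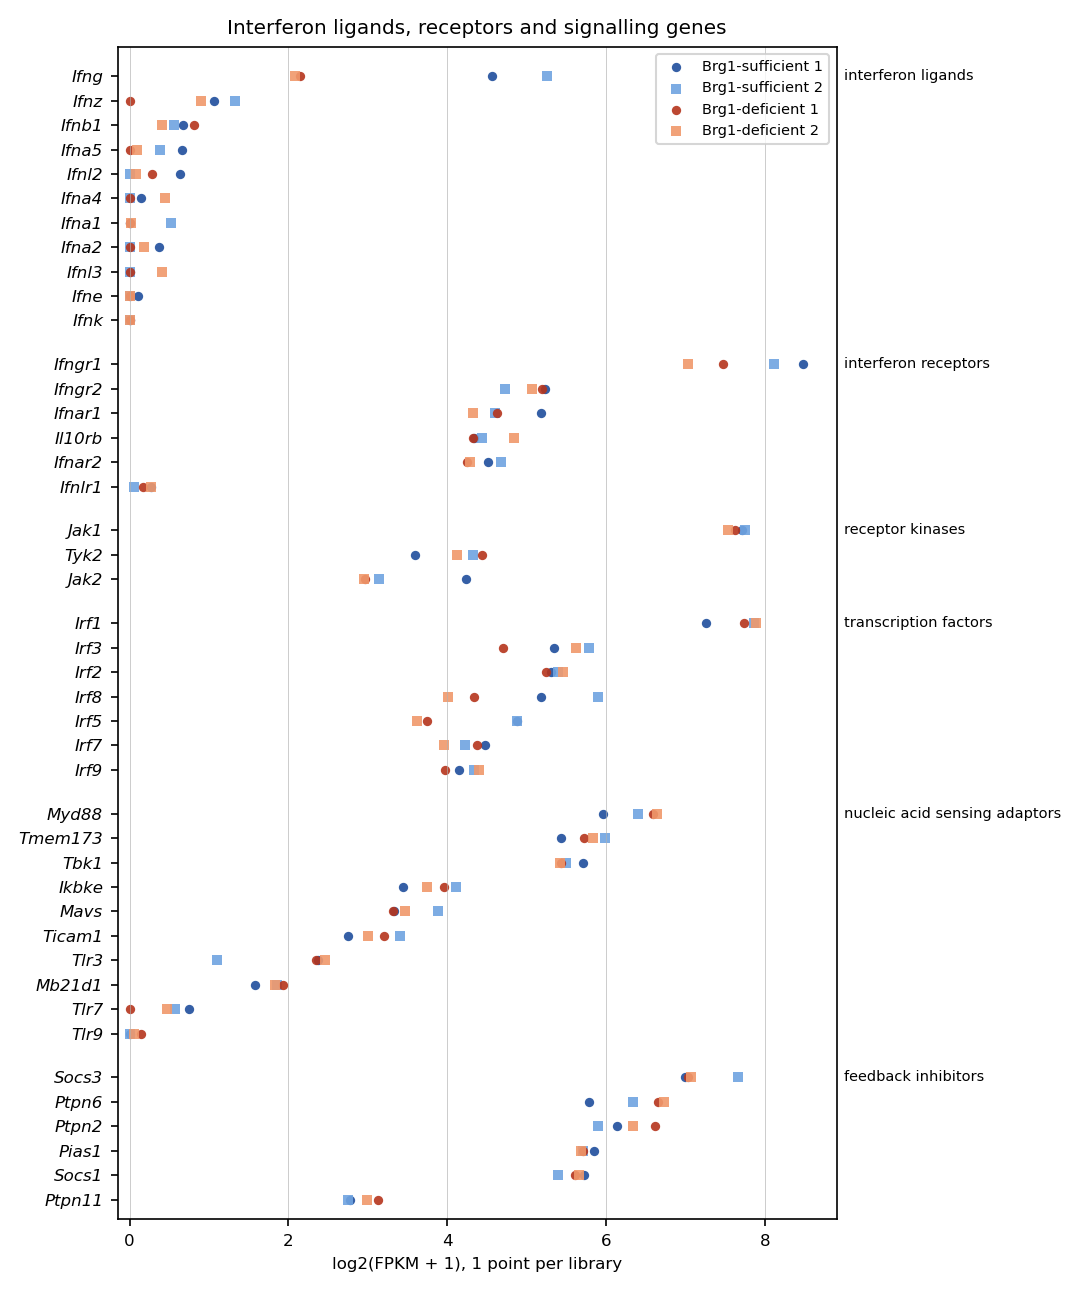
Level of the interferon ligands, receptors and signalling genes, as log2(FPKM + 1) on the horizontal axis (1 point per library; blue, Brg1-sufficient; red and orange, Brg1-deficient). The Ifng points of the Brg1-deficient libraries (3.42 and 3.22 FPKM) lie far left of the sufficient ones (22.8 and 37.3 FPKM), while the points of Irf9, Irf7 and Ifngr2 interleave.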

How the data were processed

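The authors extracted RNA with Trizol, aligned reads with STAR (version 2.5) to the mouse genome (GRCm38.p5, GENCODE M16 genes) and quantified them with RSEM (version 1.2). They deposited FPKM for each of the 4 libraries. Whether counting used strand was not given in the sources used here. The sorted deposited FPKM were nearly identical between libraries, and no source used here describes a normalization step behind this. Depth is unknown, so no counting interval is given.

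Log2(FPKM + 1) of genes with a mean above 1 FPKM in either group was fitted with limma (version 3.58.1, R 4.3.3; lmFit, eBayes with trend, genotype only), and p-values were adjusted by Benjamini-Hochberg over all genes tested. Because the deposited values are FPKM, the count test of the study was not used. Code was tested on simulated data. With 200 genes changed, 0 of 105 changed 2-fold and 39 of 95 changed 4-fold were called, with 3 of 14537 unchanged ones. A 2-fold change could therefore go uncalled in such data. Fold changes on this scale understate those of low genes. Alternatives were 2 scalings, a pseudocount of 0.1, no filter, no trend, a replicate block and each library left out.

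Genes and lists were chosen with earlier results of these data known. Per-library values are given for genes with an unadjusted p under 0.05, genes whose groups do not overlap with a log2 fold change beyond 0.5, and the 2 most abundant genes of each role group; a few others were added to fill out a role. Of the list of other interferon-stimulated genes, up to 5 per direction with the smallest p were named. Gene positions came from GENCODE M21 (GRCm38). A few items, among them 1 gene of the signalling list and details of the deleting transgene, are not reported here.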

Additional observations from a re-analysis of the deposited data

How the results depend on the processing

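The groups of 2 libraries and the FPKM unit limit these results, since depth is unknown and low genes such as Mx1 and Oas2 cannot be told from background. At an adjusted p under 0.05 over all genes tested, limma gave 33 lower and 12 higher. These counts were 0 and 0 without a filter (1400 and 1308 at an unadjusted p under 0.05), 0 and 0 without the limma trend (965 and 903), 248 and 150 with a replicate block on the library number, and 0 to 0 as single libraries were left out (507 to 1675 lower and 735 to 1507 higher at an unadjusted p), where a lone library is assumed to vary like the other group. Neither labels nor methods say that equal numbers share hosts. Deviations of same-numbered libraries correlated at -0.000386 over all genes tested and 0.388 over the 42 antiviral genes, and under the block 2 antiviral genes were lower (Bst2, adjusted p = 0.0114, and Ifitm2, 0.0141) and 1 higher (Gbp4, 0.0404) by limma. The adjusted p of Bst2 ranged from 0.0114 to 0.375 over the alternatives. By the list criteria, 1 gene was higher without a filter, and with single libraries left out 1 to 3 were lower and 0 to 3 higher. At an unadjusted p under 0.05, 2 to 7 were lower and 1 to 4 higher with single libraries left out. Leaving a library out leaves fewer samples; for the other settings the cause was not tested. The median log2 fold change of the antiviral genes ran from -0.077, without Brg1-deficient library 2, to 0.076, without Brg1-deficient library 1, and was -0.0021 with median-ratio size factors. Without the trend, Ifitm3 and Oasl2 lost and Ifi44 and Oas3 gained an unadjusted p under 0.05. The direction turned for Igtp (-0.075 without Brg1-sufficient library 1, -0.13 without Brg1-deficient library 2, up to 0.30 otherwise), Isg15 (-0.11 without sufficient library 2, up to 0.36), Rnf213 (-0.12 to 0.087, above 0 without sufficient library 1 and, at 0.047, without deficient library 1) and Ifi27 (-0.15 without sufficient library 2, -0.051 without deficient library 2, up to 0.23). It also turned for Gbp7, Gbp2, Ifitm1 and Rtp4. In all, 34 of 42 genes kept their sign under each alternative run and 8 did not.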

Other observations

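Interferon-stimulated genes outside the 47 did not share 1 direction. Of 73 further genes listed, 72 were in the table and 66 were tested. At an unadjusted p under 0.05, 4 were lower and 10 higher (6.06% and 15.2%, against 6.47% and 6.12% of all genes tested). At an adjusted p under 0.05, 1 was lower, and the median log2 fold change was 0.06. The 10 higher genes are not all independent measurements. Gbp8, Gbp9 and Gbp10 among them lie in the chromosome 5 cluster described above, where Gbp8 and Gbp9 overlap in the annotation.

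The lower genes were led by Ly6a, which encodes the surface antigen Sca-1. It was at 129 and 165 FPKM with Brg1 against 18.2 and 23.8 FPKM without it, and fell by 2.75 on the log2 scale (limma adjusted p = 0.0330). That p was 0.0792 without the filter, 0.124 without the trend and 0.156 to 0.375 as single libraries were left out, so the call ended in 6 of 10 alternatives. Phf11b was at 9.13 and 7.98 FPKM against 2 and 2.24 FPKM (log2 fold change -1.61, limma adjusted p = 0.0692), and Tgtp1, an IRG protein, at 48.6 and 56.3 FPKM against 26.0 and 37.7 FPKM (-0.72, adjusted p = 0.270). Lgals9, which encodes galectin-9, was at 77.0 and 66.9 FPKM against 55.1 and 51.6 FPKM (-0.42, limma adjusted p = 0.341).

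The 2 higher genes with the smallest p encode ligands of the chemokine receptor CXCR3. Cxcl10 was at 74.0 and 88.6 FPKM against 269 and 218 FPKM (log2 fold change 1.57, limma adjusted p = 0.0548), and Cxcl11 at 0.55 and 0.66 FPKM against 4.08 and 3.41 FPKM (1.56, adjusted p = 0.113). Another ligand gene of this receptor, Cxcl9, was at 2.50 and 4.81 FPKM against 7.26 and 6.4 FPKM (0.79, limma adjusted p = 0.375) and was added after its values were seen. Gbp9 is described above. Lgals3bp was at 92.4 and 115 FPKM against 144 and 154 FPKM (0.53, limma adjusted p = 0.272), and Slfn2, which keeps lymphocytes quiescent, at 32.2 and 45.4 FPKM against 55.4 and 79.1 FPKM (0.78, adjusted p = 0.308).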
